A study of Mus musculus with 48 samples.

Results

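The genes described here encode the extracellular matrix of the liver and the proteins of the stellate cells that make much of it. The list held 44 genes that were chosen by name (fibrillar, basement membrane and beaded collagens, proteoglycans, crosslinking enzymes, proteases and their inhibitors, matricellular proteins, growth factors and receptors, cytoskeletal proteins and a retinoid enzyme). The choice was made with earlier results of these data known. Of the 44 genes, 41 had a probe set annotated to that gene alone and were measured, out of 17097 genes with such a probe set. Where a gene had several, the probe set with the highest mean over the 24 arrays was read. Fbn1, Thbs1 and Tagln had no such probe set in the annotation used, and Ctgf is listed under its current symbol Ccn2.

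Liver RNA was measured on Affymetrix arrays in mice of 11 weeks of age, with 1 array per mouse and all mice of the F1 C57BL6J/FVB hybrid strain. The Ercc1Δ/- mice carry a truncated and a null allele of Ercc1 in all tissues, which encodes part of a nuclease for nucleotide excision and crosslink repair, and they are progeroid. They received AIN93G control diet ad libitum (Control, n = 5), that diet containing rapamycin, an mTOR inhibitor, at 14 ppm (Rapa 14 ppm, n = 4), or dietary restriction (DR 30%, n = 5). Wild-type littermates were fed the control diet ad libitum (WT-Control, n = 5) or were restricted (WT-DR, n = 5), so that rapamycin was given to mutant mice only. Restriction began at 7 weeks of age and reached 30% less food at 9 weeks. The start of the rapamycin diet is given as 4 or 8 weeks without saying which applied to the array mice, and the array titles of the rapamycin group lack a mark of re-analysis that the titles of the other groups carry, so that rapamycin and this mark cannot be told apart.

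Ercc1, the gene targeted in the mutants, had a log2 level of 6.68 ± 0.11 (SD, n = 5) in WT-Control and 6.29 ± 0.18 in WT-DR, against 5.37 ± 0.10 in Control, 5.12 ± 0.12 in Rapa 14 ppm (n = 4) and 4.96 ± 0.21 in DR 30%, and no mutant mouse overlapped with a WT mouse. The median of each array was between 4.16 and 4.21 on the log2 scale, and arrays of the same group correlated at r = 0.991 to 0.996 across probe sets. Of the 41 measured members, 32 had a mean level over that of the middle probe set of the arrays. The number of arrays limits the precision. All log2 values are the deposited RMA values, and levels of different probe sets were not compared with each other.

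In the liver the matrix is sparse between hepatocytes and the sinusoids, and denser around portal tracts and central veins. Stellate cells store vitamin A as retinyl esters in the healthy liver. When activated by injury through transforming growth factor beta and platelet-derived growth factor, they lose this store and become contractile cells that secrete collagens I and III. Matrix turnover is set by metalloproteases and their tissue inhibitors, and scar tissue builds up where synthesis and crosslinking exceed breakdown. Portal fibroblasts, endothelial cells and hepatocytes also make matrix proteins. In RNA of whole liver, a larger number of cells of a type and more RNA per cell cannot be told apart.

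Promoter windows of 300 bases, from 250 before to 50 after the start of the RefSeq gene on GRCm38.p6, were available for 31 of the 44 listed genes and for 11 of the 15 members that differed in at least 1 comparison. The windows below are those of members on which the results turn, Postn, Vim and Col4a2 (higher in mutants in at least 1 comparison), Mmp14 and Tgfbr2 (higher under restriction) and Col3a1 and Serpinh1 (lower in restricted WT mice). They are printed 5′ to 3′ on the strand of the gene, and capitals mark 3 common promoter motifs on either strand, the TATA box (letters TATAAA), the box named for its letters CCAAT, and the GC box (letters GGGCGG), so that a motif on the other strand shows as its reverse complement.
Postn promoter, chr3:54360857-54361156, plus strand: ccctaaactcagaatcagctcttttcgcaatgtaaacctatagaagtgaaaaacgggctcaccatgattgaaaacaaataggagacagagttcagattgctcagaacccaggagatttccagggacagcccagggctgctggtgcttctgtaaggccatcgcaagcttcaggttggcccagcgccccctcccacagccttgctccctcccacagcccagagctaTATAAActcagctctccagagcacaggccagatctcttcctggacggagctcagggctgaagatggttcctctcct
Vim promoter, chr2:13574061-13574360, plus strand: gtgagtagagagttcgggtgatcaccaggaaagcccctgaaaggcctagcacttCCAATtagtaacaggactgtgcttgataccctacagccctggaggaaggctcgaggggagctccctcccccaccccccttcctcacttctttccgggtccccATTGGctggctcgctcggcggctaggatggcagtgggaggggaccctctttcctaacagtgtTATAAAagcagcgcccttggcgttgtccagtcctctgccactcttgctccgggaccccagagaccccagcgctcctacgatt
Col4a2 promoter, chr8:11312555-11312854, plus strand: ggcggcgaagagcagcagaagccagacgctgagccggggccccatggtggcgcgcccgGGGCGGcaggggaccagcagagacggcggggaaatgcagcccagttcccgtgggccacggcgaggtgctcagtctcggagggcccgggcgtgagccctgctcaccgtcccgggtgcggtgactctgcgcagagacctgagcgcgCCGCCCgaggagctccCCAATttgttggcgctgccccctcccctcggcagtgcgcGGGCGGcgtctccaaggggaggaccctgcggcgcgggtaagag
Mmp14 promoter, chr14:54431348-54431647, plus strand: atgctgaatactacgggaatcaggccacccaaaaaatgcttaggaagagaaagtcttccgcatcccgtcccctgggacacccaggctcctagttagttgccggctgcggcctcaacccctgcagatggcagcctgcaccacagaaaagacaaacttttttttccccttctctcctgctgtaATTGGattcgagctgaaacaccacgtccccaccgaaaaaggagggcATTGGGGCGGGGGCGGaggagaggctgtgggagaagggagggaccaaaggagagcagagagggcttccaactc
Tgfbr2 promoter, chr9:116175314-116175613, minus strand: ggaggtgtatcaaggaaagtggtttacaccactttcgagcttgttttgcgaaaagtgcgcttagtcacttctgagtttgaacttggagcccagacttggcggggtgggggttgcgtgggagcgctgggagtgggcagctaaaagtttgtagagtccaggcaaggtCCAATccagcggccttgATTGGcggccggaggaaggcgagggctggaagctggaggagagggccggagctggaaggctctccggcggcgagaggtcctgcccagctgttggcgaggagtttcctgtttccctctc
Col3a1 promoter, chr1:45311288-45311587, plus strand: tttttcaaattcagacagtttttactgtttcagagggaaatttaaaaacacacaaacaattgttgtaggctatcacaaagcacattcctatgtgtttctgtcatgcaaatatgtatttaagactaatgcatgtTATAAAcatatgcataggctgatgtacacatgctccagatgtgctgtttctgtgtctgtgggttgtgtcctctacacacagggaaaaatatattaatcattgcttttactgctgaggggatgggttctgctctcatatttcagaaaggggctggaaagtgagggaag
Serpinh1 promoter, chr7:99353190-99353489, minus strand: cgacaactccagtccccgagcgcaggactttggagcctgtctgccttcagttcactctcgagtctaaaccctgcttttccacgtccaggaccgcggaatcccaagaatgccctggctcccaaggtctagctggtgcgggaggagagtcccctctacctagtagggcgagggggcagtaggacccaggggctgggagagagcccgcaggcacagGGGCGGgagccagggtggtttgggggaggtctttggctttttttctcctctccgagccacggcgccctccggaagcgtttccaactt

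TATAAA was present in 6 of the 33 windows of members and in 4473 of all 32851 windows (13.6%). CCAAT was present in 13 of the 33 and in 12289 of all windows (37.4%), and GGGCGG in 21 of the 33 and in 11714 of all (35.7%). Postn carried TATAAA 26 bases before its start in the window shown, which is 1 of its 2 start sites in the table, and Vim carried it 32 bases before its start beside 2 CCAAT sequences. In Mmp14 a CCAAT and a GGGCGG sequence shared 1 base. The start sites of Col4a1 and Col4a2, whose products form one heterotrimer, lay 21 bases apart on chromosome 8 on opposite strands, and their windows shared 78 bases. A match of letters is a description of the window only.

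Up to 9 members were called higher and 0 lower in each comparison of mutant with WT liver. Restriction moved 3 members up and 3 down in WT mice, and 1 up in mutants. A member is called when its Benjamini-Hochberg false discovery rate (FDR, the adjusted p) in limma was under 0.05 and its fold change at least 1.5, which is 0.585 on the log2 scale. In Control vs WT-Control, 6 members were called higher and 0 lower, against 2.49% higher and 1.11% lower of all 17097 genes. The median log2 difference of the members was 0.18 and that of all genes −0.01. As the list was chosen with earlier results of these data known, such shares and medians describe the members and are not a test. In Rapa 14 ppm vs WT-Control, 6 were called higher and 0 lower (3.01% and 1.61% of all genes), with a median of 0.20 against −0.03. In DR 30% vs WT-Control, 7 were called higher and 0 lower (4.85% and 2.32%), with a median of 0.19 against −0.03. These 3 comparisons share the WT-Control mice, and the DR 30% and Rapa 14 ppm mice differ from WT-Control in diet or drug as well as genotype. Timp3 and Tgfbr2, called in DR 30% vs WT-Control, were also called in WT-DR vs WT-Control (log2 differences of 0.93 and 0.67). In DR 30% vs WT-DR, which uses none of the mice of Control vs WT-Control, 9 were called higher and 0 lower (4.22% and 1.22%), and the median was 0.31 against 0.00.

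Restriction was compared within each genotype. In WT-DR vs WT-Control, 3 members were called higher and 3 lower, against 2.85% and 3.52% of all genes, and the median log2 difference was −0.07 against −0.03 over all genes. In DR 30% vs Control, 1 was called higher and 0 lower (1.85% and 1.22%), with a median of −0.01 for members and for all genes alike. The interaction term for restriction by genotype, the difference between these restriction effects, had 0 members called in either direction (0.737% higher and 0.228% lower of all genes). Rapamycin against Control likewise had 0 members called (0.0468% higher and 0.00585% lower), and Rapa 14 ppm vs DR 30% had 1 higher and 2 lower (0.842% and 1.27%). In all, 15 members were called in at least 1 comparison, 20 had an adjusted p under 0.05 in at least 1, and 21 in none. The share of all genes called in at least 1 comparison was not counted, so these totals have no background to be read against. The chart of all members by comparison shows the calls.

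**Figure D1:**
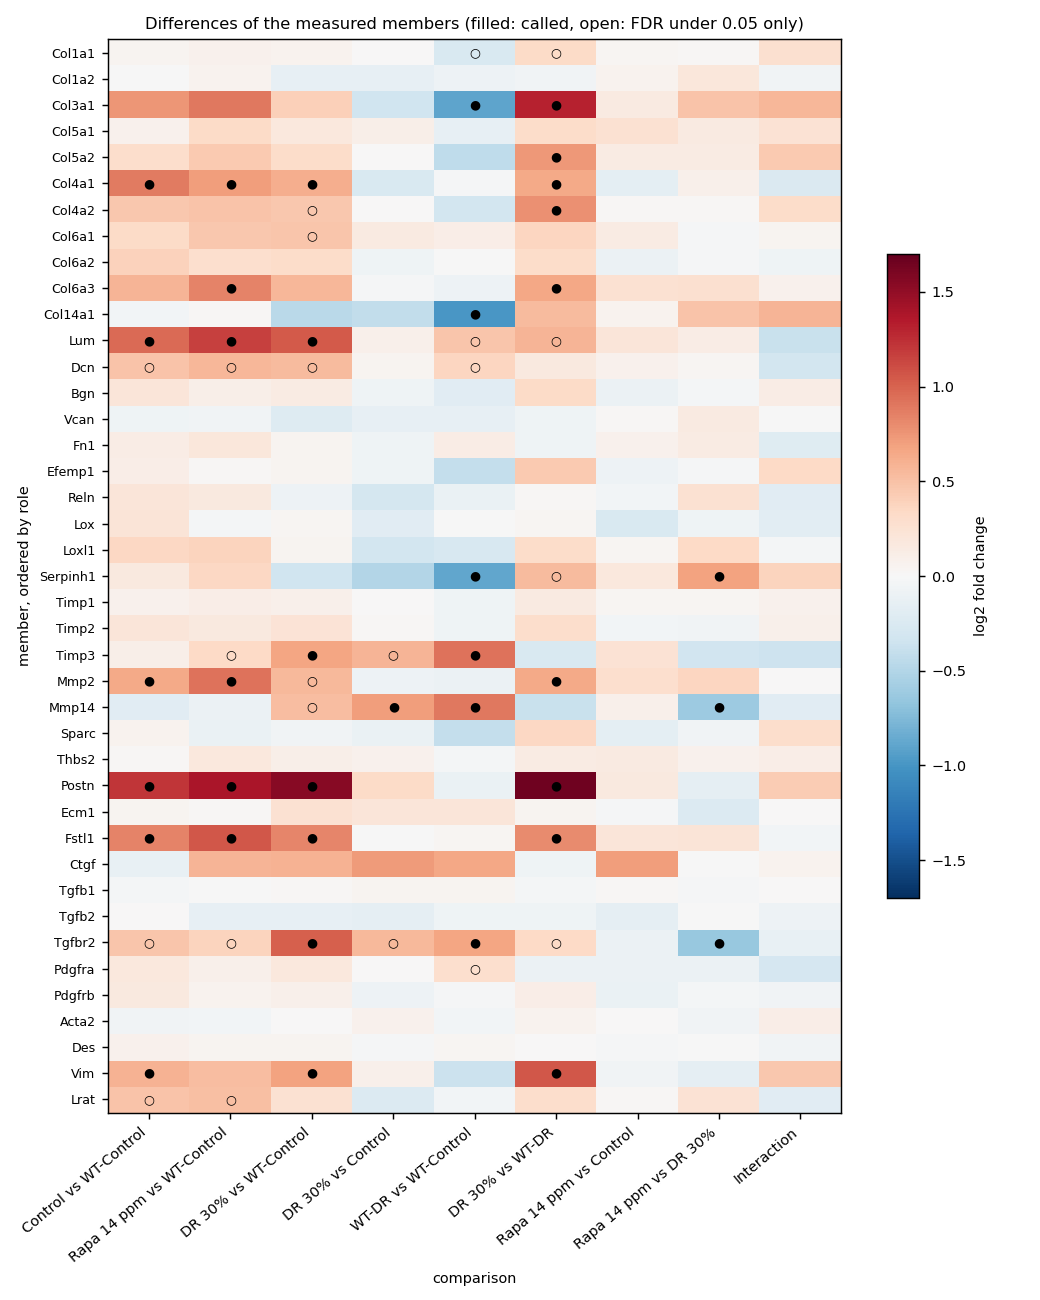
Log2 fold changes of the 41 measured members (rows, ordered by role) in the 9 comparisons (columns), with filled dots for called members and open dots for an adjusted p under 0.05 with a smaller fold change. The column of DR 30% vs WT-DR has 9 filled dots, all of them higher, and those of Rapa 14 ppm vs Control and of the interaction have 0.

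Matricellular proteins bind the matrix and signal to cells rather than build fibrils, and 2 of the 6 measured, Postn and Fstl1, were called in all 4 comparisons of mutant with WT mice. Postn encodes periostin, which binds collagen and promotes its crosslinking. Its log2 level in single mice was 6.46, 6.53, 6.76, 6.84 and 6.90 in WT-Control and 6.28, 6.42, 6.71, 6.75 and 6.80 in WT-DR. Among Ercc1Δ/- mice the levels were 7.77, 7.78, 7.96, 8.01 and 8.05 for Control, 7.79, 8.00, 8.28 and 8.29 for Rapa 14 ppm and 8.08, 8.11, 8.15, 8.30 and 8.58 for DR 30%. Every mutant mouse was above every WT mouse, and in the mutants the DR 30% mice were all above the Control mice by a small margin. The log2 difference was 1.22 (SE 0.12, adjusted p = 5.44e-07) in Control vs WT-Control, a 2.33-fold difference, and 1.65 (SE 0.12, adjusted p = 3.59e-09) in DR 30% vs WT-DR, a 3.14-fold one. It was 1.39 (adjusted p = 1.68e-07) for Rapa 14 ppm and 1.54 (adjusted p = 5.14e-09) for DR 30% against WT-Control, the smallest adjusted p of any member in each of these 4 comparisons. Between DR 30% and Control the log2 difference of 0.33 did not pass the test (adjusted p = 0.100).

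Fstl1 encodes follistatin-like 1, a secreted glycoprotein made by mesenchymal cells. Single WT-Control mice had log2 levels of Fstl1 of 4.83, 4.95, 4.99, 5.03 and 5.07, and WT-DR mice had 4.72, 4.79, 4.98, 5.04 and 5.50. Control mice had 5.61, 5.73, 5.77, 5.90 and 6.09, Rapa 14 ppm mice 5.93, 6.03, 6.06 and 6.10 and DR 30% mice 5.51, 5.67, 5.80, 5.96 and 6.08. All mutant mice were above all WT mice, with 1 WT-DR mouse (421) close to the lowest mutant. The log2 difference from WT-Control was 0.85 (SE 0.12, adjusted p = 6.33e-05) for Control, 1.06 (adjusted p = 6.69e-06) for Rapa 14 ppm and 0.83 (adjusted p = 2.53e-05) for DR 30%. Between DR 30% and WT-DR it was 0.80 (SE 0.12, adjusted p = 7.77e-05). No call of Postn or Fstl1 changed whichever mouse was left out, in the values per gene or in the other normalizations and models tried.

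The other 4 matricellular members were not called. Sparc, a collagen-binding glycoprotein, was at 9.19 ± 0.27 (SD, n = 5) in WT-Control and 8.78 ± 0.21 in WT-DR on the log2 scale, and its smallest adjusted p was 0.120. Ctgf (Ccn2), a target of transforming growth factor beta, was at 7.75 ± 0.43 in WT-Control, 8.41 ± 0.56 in WT-DR and 7.62 ± 0.49 in Control. It was at 8.34 ± 0.19 in Rapa 14 ppm (n = 4) and 8.34 ± 0.64 in DR 30%, and its smallest adjusted p in any comparison was 0.114. In Rapa 14 ppm vs Control the log2 difference of Ctgf was 0.71 (adjusted p = 0.442), which did not pass. The highest Control mouse was at 8.10 and the lowest Rapa 14 ppm mouse at 8.11. Thbs2 and Ecm1 had log2 differences of −0.03 to 0.18 and of −0.23 to 0.25 over the 9 comparisons.

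Of the 4 proteoglycans, which bind to collagen fibrils or fill the space between them, Lum was called, Dcn passed the FDR only, and Bgn and Vcan did not pass in any comparison. Lum encodes lumican, a regulator of fibril diameter. On the log2 scale Lum read 7.92, 8.09, 8.12, 8.31 and 8.44 in the WT-Control mice and 8.27, 8.57, 8.66, 8.72 and 9.01 in the WT-DR mice. The mutants read 8.81, 9.12, 9.13, 9.14 and 9.48 on control diet, 9.24, 9.31, 9.39 and 9.45 under rapamycin and 8.94, 9.19, 9.23, 9.32 and 9.46 under restriction. Every mutant mouse was above every WT-Control mouse, whereas WT-DR lay between them and overlapped with both. The log2 difference from WT-Control was 0.96 (SE 0.13, adjusted p = 2.46e-05) for Control, 1.17 (adjusted p = 3.34e-06) for Rapa 14 ppm and 1.05 (adjusted p = 2.34e-06) for DR 30%. Restricted WT mice were higher than WT-Control by 0.47 (SE 0.13, adjusted p = 0.0104), below the fold change threshold. DR 30% exceeded WT-DR by 0.58 (SE 0.13, adjusted p = 0.00301), just under the threshold, and this was called without DR 30% mouse 362 (0.65) or 368 (0.59), or WT-DR mouse 421 (0.67) or 425 (0.60).

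Dcn encodes decorin, which coats collagen fibrils and binds transforming growth factor beta. Its log2 level in single mice was 11.02, 11.15, 11.29, 11.37 and 11.37 in WT-Control and 11.55, 11.55, 11.58, 11.64 and 11.69 in WT-DR. Among Ercc1Δ/- mice the levels were 11.56, 11.69, 11.70, 11.75 and 11.92 for Control, 11.74, 11.77, 11.83 and 11.87 for Rapa 14 ppm and 11.56, 11.74, 11.75, 11.89 and 11.93 for DR 30%. All mice of the other 4 groups, restricted WT mice included, were above all WT-Control mice. The log2 differences from WT-Control were 0.48 (SE 0.08, adjusted p = 0.000226) for Control, 0.56 (adjusted p = 6.74e-05) for Rapa 14 ppm, 0.53 (adjusted p = 2.60e-05) in DR 30% and 0.36 (adjusted p = 0.00167) in WT-DR, all of them smaller than 1.5-fold. Without DR 30% mouse 362 the difference in DR 30% reached the threshold (0.59), as did that in Rapa 14 ppm without WT-Control mouse 402 (0.60) or 405 (0.60). Between DR 30% and WT-DR the log2 difference was 0.17 (adjusted p = 0.163). Bgn, biglycan, and Vcan, versican, had smallest adjusted p of 0.172 and 0.0703, the latter for −0.21 in DR 30% vs WT-Control.

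**Figure D2:**
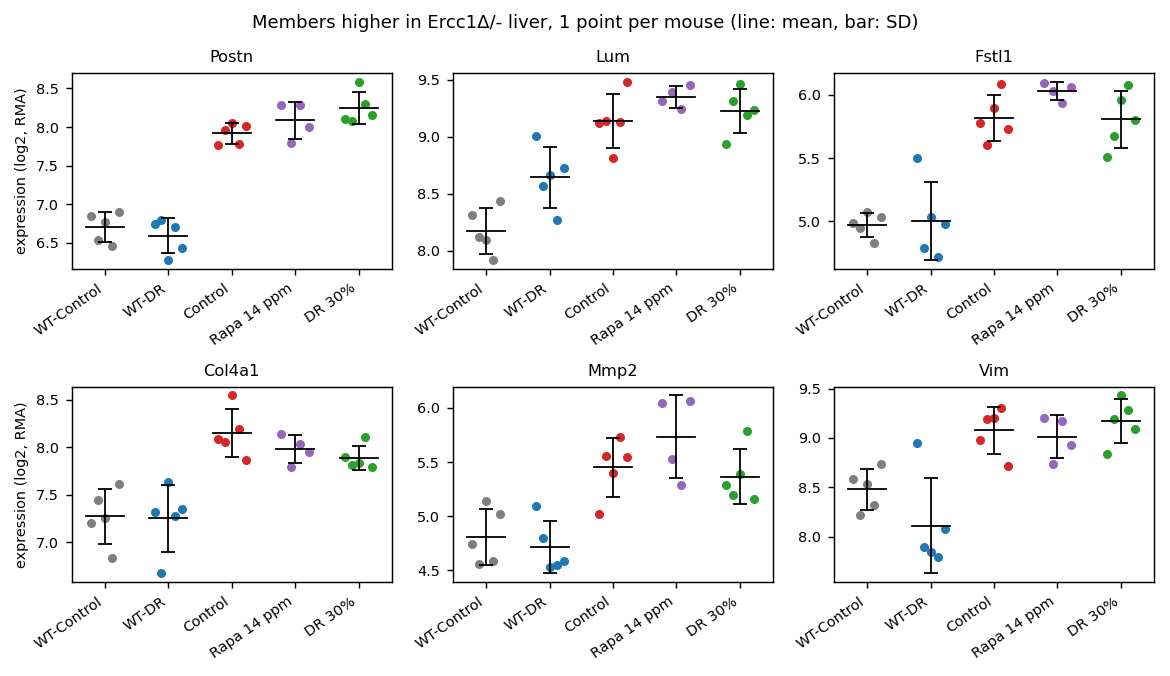
Log2 levels of Postn, Lum, Fstl1, Col4a1, Mmp2 and Vim in each mouse by group, with the mean (line) and SD (bar). For Postn, Fstl1 and Col4a1 all points of the 3 Ercc1Δ/- groups lie above all points of both WT groups, and the high WT-DR point of Vim at 8.95 is mouse 421.

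Of the main collagen IV chains of basement membranes, Col4a1 was called higher in all 4 comparisons of mutant with WT mice and Col4a2 in DR 30% vs WT-DR. Single WT-Control mice had log2 levels of Col4a1 of 6.83, 7.20, 7.26, 7.44 and 7.61, and WT-DR mice had 6.67, 7.27, 7.32, 7.35 and 7.63. Control mice had 7.87, 8.05, 8.09, 8.19 and 8.55, Rapa 14 ppm mice 7.79, 7.95, 8.03 and 8.14 and DR 30% mice 7.80, 7.82, 7.84, 7.89 and 8.10. All mutant mice were above all WT mice, by the smallest margin where the highest WT-DR mouse met the lowest mutants. Col4a1 was called in Control vs WT-Control (log2 difference 0.88, SE 0.15, adjusted p = 0.000454), in Rapa 14 ppm (0.71, adjusted p = 0.00494) and DR 30% (0.62, adjusted p = 0.00464) against WT-Control and in DR 30% vs WT-DR (0.64, SE 0.15, adjusted p = 0.00551). The call in DR 30% vs WT-Control was lost without DR 30% mouse 368 (0.57) or WT-Control mouse 404 (0.51), and that in DR 30% vs WT-DR without WT-DR mouse 422 (0.49), each time through the fold change. Renewed quantile normalization took the former to 0.56, also below the threshold.

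Col4a2 was at a log2 level of 7.19 ± 0.20 (SD, n = 5) in WT-Control, 6.89 ± 0.35 in WT-DR, 7.66 ± 0.32 in Control, 7.67 ± 0.27 in Rapa 14 ppm (n = 4) and 7.66 ± 0.20 in DR 30%. The mutant groups overlapped with each other, and the WT-DR mice were all below the DR 30% mice. Col4a2 was called in DR 30% vs WT-DR (0.77, SE 0.16, adjusted p = 0.00211), whereas the log2 differences from WT-Control were 0.46 (adjusted p = 0.0860) for Control, 0.48 (adjusted p = 0.0759) for Rapa 14 ppm and 0.46 (adjusted p = 0.0436) for DR 30%.

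Among the 5 fibrillar collagens, Col3a1 and Col5a2 were called between restricted mutant and restricted WT mice. Col3a1 encodes the chain of collagen III, a main fibril of liver scars. Its log2 level was 8.74 ± 0.47 (SD, n = 5) in WT-Control, 7.84 ± 0.75 in WT-DR, 9.48 ± 0.37 in Control, 9.63 ± 0.31 in Rapa 14 ppm (n = 4) and 9.15 ± 0.37 in DR 30%. WT-DR was the lowest group, from 7.08 to 8.13, apart from mouse 421 at 9.00, which was within the range of DR 30%. DR 30% exceeded WT-DR by 1.31 (SE 0.28, adjusted p = 0.00294) on the log2 scale, and WT-DR was below WT-Control at −0.90 (SE 0.28, adjusted p = 0.0269). In Control and Rapa 14 ppm the log2 differences from WT-Control were 0.75 (adjusted p = 0.117) and 0.89 (adjusted p = 0.0592), which did not pass, although the values per gene called the latter (0.80, adjusted p = 0.0207). The call in WT-DR vs WT-Control was lost without any 1 of WT-Control mice 403 (adjusted p = 0.0516) and 405 (0.0867) and WT-DR mice 422 (0.0949), 423 (0.0780) and 424 (0.0606). With only the compared groups in the model the adjusted p was 0.0818.

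Col5a2, a chain of the collagen V that nucleates fibrils, was at 5.09 ± 0.32 (log2 level, SD, n = 5) in WT-DR, 5.52 ± 0.31 in WT-Control and 5.82 ± 0.30, 5.96 ± 0.36 (n = 4) and 5.83 ± 0.30 in Control, Rapa 14 ppm and DR 30%. DR 30% exceeded WT-DR by 0.74 (SE 0.19, adjusted p = 0.00982), and the groups overlapped through 1 WT-DR mouse. Col1a1, of collagen I, read below the array median at 3.76 ± 0.04 in WT-Control and 3.50 ± 0.16 in WT-DR, a log2 difference of −0.26 (adjusted p = 0.0346), and was higher in DR 30% than in WT-DR by 0.32 (adjusted p = 0.0154). Col5a1 did not pass in any comparison. Col1a2 read at 2.92 ± 0.02 in WT-Control, near the floor of the values, and its smallest adjusted p was 0.0917, in Rapa 14 ppm vs DR 30% (0.20). In the values per gene, the other table of the same mice, Col1a2 had a mean of 6.33 and was called higher in Rapa 14 ppm vs WT-Control (0.63, adjusted p = 0.0387) and in DR 30% vs WT-DR (0.72, adjusted p = 0.0107).

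Collagen VI forms beaded filaments, and collagen XIV sits on the surface of fibrils. Col6a3 was at a log2 level of 6.08 ± 0.33 (SD, n = 5) in WT-Control, 5.99 ± 0.46 in WT-DR, 6.67 ± 0.29 in Control, 6.92 ± 0.26 in Rapa 14 ppm (n = 4) and 6.65 ± 0.38 in DR 30%. It was called in Rapa 14 ppm vs WT-Control (0.84, SE 0.22, adjusted p = 0.0160) and in DR 30% vs WT-DR (0.65, SE 0.21, adjusted p = 0.0401), but not in Control (0.58, adjusted p = 0.0932) or DR 30% (0.56, adjusted p = 0.0577) vs WT-Control. The first call was lost without Rapa 14 ppm mouse 535 (adjusted p = 0.0549). The second was lost with only the compared groups in the model (adjusted p = 0.0858) and without DR 30% mouse 366 (0.0501), 368 (0.0915) or 369 (0.126) or WT-DR mouse 422 (0.130), 423 (0.0621) or 425 (0.0605). Col6a1 was higher in DR 30% than in WT-Control by 0.48 (adjusted p = 0.0376), below the fold change threshold, and Col6a2 did not pass in any comparison.

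Col14a1 was called lower in restricted WT mice only. On the log2 scale Col14a1 read 8.34, 8.51, 8.58, 8.62 and 8.87 in the WT-Control mice and 7.02, 7.13, 7.69, 7.84 and 8.26 in the WT-DR mice. The mutants read 8.32, 8.37, 8.55, 8.69 and 8.76 on control diet, 8.28, 8.61, 8.75 and 8.76 under rapamycin and 7.59, 8.07, 8.07, 8.43 and 8.46 under restriction. All WT-DR mice were below all WT-Control mice, and DR 30% reached lower than Control but overlapped with it. WT-DR was below WT-Control at −0.99 (SE 0.19, adjusted p = 0.000602), whereas DR 30% vs Control had −0.41 (adjusted p = 0.199) and Control vs WT-Control −0.04 (adjusted p = 0.929). The interaction of 0.58 had an adjusted p of 0.338, so a difference between the genotypes in this response was not shown.

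Of the 5 metalloproteases and inhibitors, Mmp2 was higher in mutants, and Mmp14 and Timp3 were higher under restriction. Mmp2 encodes gelatinase A, which degrades denatured collagen and collagen IV. Its log2 level in single mice was 4.56, 4.59, 4.74, 5.02 and 5.14 in WT-Control and 4.54, 4.55, 4.59, 4.80 and 5.10 in WT-DR. Among Ercc1Δ/- mice the levels were 5.02, 5.40, 5.54, 5.56 and 5.74 for Control, 5.29, 5.53, 6.05 and 6.06 for Rapa 14 ppm and 5.16, 5.19, 5.29, 5.39 and 5.79 for DR 30%. The mutants were above the WT mice in nearly every case, and only the lowest Control mouse reached into the WT range. Mmp2 was called in Control (0.64, SE 0.16, adjusted p = 0.0166) and Rapa 14 ppm (0.92, adjusted p = 0.00111) vs WT-Control and in DR 30% vs WT-DR (0.65, SE 0.16, adjusted p = 0.0101). In DR 30% vs WT-Control the log2 difference was 0.55 (adjusted p = 0.0194), which passed the FDR but not the fold change.

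Of the 3 calls of Mmp2, that in Rapa 14 ppm vs WT-Control was made whichever mouse was left out (0.81 to 1.07 on the log2 scale), and the other 2 depended on single mice. That in Control vs WT-Control was lost without Control mouse 326 (adjusted p = 0.0503) or WT-Control mouse 402 (0.0519) or 404 (0.0502), and that in DR 30% vs WT-DR without DR 30% mouse 368 (0.54 on the log2 scale, adjusted p = 0.0415). In DR 30% vs WT-Control, Mmp2 was called without DR 30% mouse 365 (0.60) or 369 (0.60) or WT-Control mouse 403 (0.64) or 405 (0.61).

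Mmp14 encodes the membrane-bound protease MT1-MMP, which cleaves fibrillar collagens and activates the Mmp2 proenzyme. Single WT-Control mice had log2 levels of Mmp14 of 6.76, 7.30, 7.30, 7.37 and 7.84, and WT-DR mice had 7.94, 8.09, 8.15, 8.33 and 8.56. Control mice had 6.98, 6.99, 7.06, 7.11 and 7.49, Rapa 14 ppm mice 7.02, 7.03, 7.25 and 7.55 and DR 30% mice 7.68, 7.69, 7.85, 7.91 and 8.05. All restricted mice were above all ad libitum mice of their own genotype, and the rapamycin mice lay with the Control mice. The log2 difference was 0.90 (SE 0.15, adjusted p = 0.000190) in WT-DR vs WT-Control and 0.71 (SE 0.15, adjusted p = 0.00435) in DR 30% vs Control, the only member called for restriction in both genotypes. Rapa 14 ppm was below DR 30% at −0.62 (SE 0.16, adjusted p = 0.0259), and this call was lost without Rapa 14 ppm mouse 536 (adjusted p = 0.0776) or 537 (0.0964) or DR 30% mouse 362 (0.0703). DR 30% exceeded WT-Control by 0.52 (adjusted p = 0.0189), which was called without WT-Control mouse 405 (0.65).

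Timp3 encodes an inhibitor of metalloproteases that is bound to the matrix. On the log2 scale Timp3 read 6.80, 6.92, 7.02, 7.21 and 7.31 in the WT-Control mice and 7.81, 7.88, 8.01, 8.07 and 8.15 in the WT-DR mice. The mutants read 7.10, 7.11, 7.12, 7.20 and 7.21 on control diet, 7.35, 7.35, 7.40 and 7.50 under rapamycin and 7.51, 7.58, 7.61, 7.96 and 7.96 under restriction. Restricted mice were all above the ad libitum mice of both genotypes, and the rapamycin mice stood above the Control mice and below the DR 30% mice without overlap. WT-DR exceeded WT-Control by 0.93 (SE 0.10, adjusted p = 4.32e-07) and DR 30% exceeded WT-Control by 0.67 (adjusted p = 2.74e-05). In DR 30% vs Control the log2 difference was 0.57 (SE 0.10, adjusted p = 0.000550), just under the fold change threshold, and it was called without Control mouse 323 (0.59) or 326 (0.59) or DR 30% mouse 362 (0.60), 368 (0.63) or 369 (0.61). Rapa 14 ppm exceeded Control by 0.25 (adjusted p = 0.420), which did not pass, and WT-Control by 0.34 (adjusted p = 0.0350). Timp1, the inhibitor induced in injured liver, read below the array median in every group, from 3.43 ± 0.13 in WT-DR to 3.61 ± 0.09 in Rapa 14 ppm, and neither it nor Timp2 passed in any comparison.

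Serpinh1 encodes HSP47, the chaperone that collagen needs to fold in the endoplasmic reticulum, and it was called lower in restricted WT mice. Its log2 level in single mice was 6.51, 6.59, 7.00, 7.01 and 7.09 in WT-Control and 5.38, 5.75, 5.95, 6.15 and 6.55 in WT-DR. Among Ercc1Δ/- mice the levels were 6.75, 6.87, 7.03, 7.03 and 7.33 for Control, 6.86, 6.87, 7.38 and 7.65 for Rapa 14 ppm and 6.36, 6.47, 6.48, 6.50 and 6.69 for DR 30%. WT-DR was the lowest group, with only mouse 421 reaching the lowest WT-Control mice, and DR 30% was below Control and Rapa 14 ppm without overlap. WT-DR was below WT-Control at −0.88 (SE 0.18, adjusted p = 0.000985), whereas DR 30% vs Control had −0.50 (SE 0.18, adjusted p = 0.0812). A second probe set of Serpinh1 was called for DR 30% vs Control (−0.71, adjusted p = 0.00665), as were the values per gene (−0.68, adjusted p = 0.00507).

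Rapa 14 ppm exceeded DR 30% in Serpinh1 by 0.69 (SE 0.19, adjusted p = 0.0334). This call was lost without Rapa 14 ppm mouse 535 (adjusted p = 0.115) or 537 (0.154) or DR 30% mouse 362 (0.0782), 365 (0.0573), 366 (0.0628) or 369 (0.0603), and it was made with the second probe set too (0.74, adjusted p = 0.0132). DR 30% exceeded WT-DR by 0.54 (adjusted p = 0.0470), below the threshold, and without WT-DR mouse 421 by 0.69, above it. The crosslinking enzymes Lox and Loxl1 were not called. Among the members that passed the FDR in no comparison, Lox had the smallest adjusted p, at 0.22 in Control vs WT-Control (adjusted p = 0.0686).

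**Figure D3:**
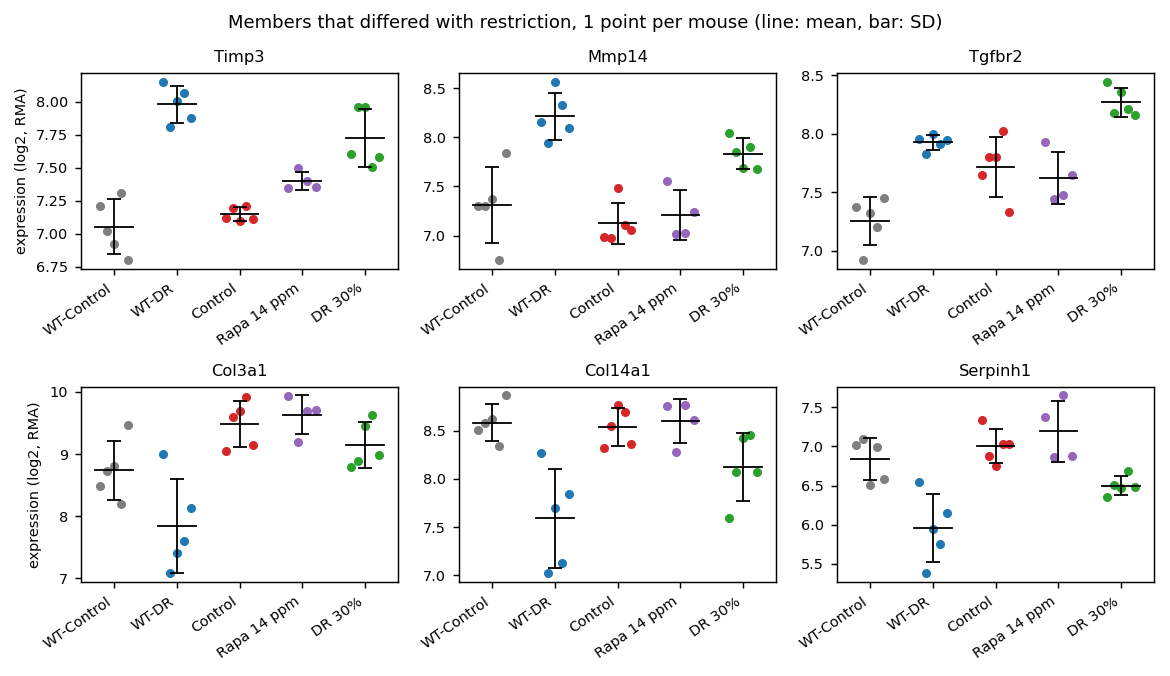
Log2 levels of Timp3, Mmp14, Tgfbr2, Col3a1, Col14a1 and Serpinh1 in each mouse by group, with the mean (line) and SD (bar). The DR 30% and WT-DR points of Timp3, Mmp14 and Tgfbr2 lie above the ad libitum points of the same genotype, and the WT-DR points of Col3a1 spread from 7.08 to 9.00.

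Tgfbr2, the type II receptor that binds transforming growth factor beta, was the only called member among the 5 growth factors and receptors. Single WT-Control mice had log2 levels of Tgfbr2 of 6.92, 7.20, 7.32, 7.37 and 7.45, and WT-DR mice had 7.83, 7.91, 7.95, 7.95 and 8.00. Control mice had 7.33, 7.64, 7.80, 7.80 and 8.02, Rapa 14 ppm mice 7.45, 7.47, 7.65 and 7.93 and DR 30% mice 8.16, 8.17, 8.22, 8.36 and 8.44. Restricted mice were above ad libitum mice of their genotype without overlap, and DR 30% was also above WT-DR. The log2 difference was 0.67 (SE 0.11, adjusted p = 0.000159) in WT-DR vs WT-Control and 0.55 (SE 0.11, adjusted p = 0.00292) in DR 30% vs Control, the latter below the fold change threshold except without Control mouse 326 (0.63). DR 30% exceeded WT-Control by 1.02 (SE 0.11, adjusted p = 7.71e-07), Control exceeded it by 0.47 (adjusted p = 0.0116) and Rapa 14 ppm by 0.37 (adjusted p = 0.0497). Rapa 14 ppm was below DR 30% at −0.65 (SE 0.12, adjusted p = 0.00267).

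The ligands and the receptors for platelet-derived growth factor were not called. Tgfb1 read at 3.72 ± 0.24 (log2 level, SD, n = 5) in WT-Control and 3.69 ± 0.27 in Control, both below the array median, and its log2 differences were between −0.03 and 0.05 over the 9 comparisons. Pdgfrb, a receptor typical of stellate cells, was between −0.11 and 0.16 with a smallest adjusted p of 0.474. Pdgfra was higher in WT-DR than in WT-Control by 0.29 (adjusted p = 0.0197), at levels below the array median, and Tgfb2 did not pass in any comparison. In the values per gene, Pdgfra had a mean of 4.53. There WT-DR exceeded WT-Control by 0.56 (adjusted p = 0.000127), below the fold change threshold.

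Vim encodes vimentin, the intermediate filament of mesenchymal, endothelial and white blood cells. On the log2 scale Vim read 8.22, 8.33, 8.54, 8.58 and 8.74 in the WT-Control mice and 7.79, 7.84, 7.90, 8.08 and 8.95 in the WT-DR mice. The mutants read 8.71, 8.98, 9.19, 9.21 and 9.30 on control diet, 8.74, 8.93, 9.17 and 9.20 under rapamycin and 8.83, 9.10, 9.20, 9.29 and 9.43 under restriction. The mutant groups lay at one level, above the WT-DR mice except mouse 421 at 8.95, which was among the mutants. DR 30% exceeded WT-DR by 1.06 (SE 0.17, adjusted p = 0.000208) and WT-Control by 0.69 (SE 0.17, adjusted p = 0.00642). Control exceeded WT-Control by 0.60 (SE 0.17, adjusted p = 0.0363), with overlapping groups, whereas Rapa 14 ppm vs WT-Control had 0.53 (adjusted p = 0.0686). The call in Control vs WT-Control was lost without any 1 of Control mice 323 (adjusted p = 0.0763), 325 (0.0765) and 326 (0.0859) and WT-Control mice 401 (0.0540), 402 (0.0975), 403 (0.0523) and 404 (0.0852). With median centring of the arrays the log2 difference was 0.58, below the fold change threshold.

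The contractile marker of activated stellate cells, Acta2 (smooth muscle actin), was at 5.96 ± 0.41 (log2 level, SD, n = 5) in WT-Control, 5.91 ± 0.53 in WT-DR, 5.90 ± 0.69 in Control, 5.91 ± 0.42 in Rapa 14 ppm (n = 4) and 5.97 ± 0.40 in DR 30%. The groups overlapped throughout, and the interval of the log2 difference of Control from WT-Control was −0.66 to 0.54 (95%). Des, desmin, had log2 differences between −0.05 and 0.07, with an interval of −0.09 to 0.22 in Control vs WT-Control. Lrat, the enzyme that makes the retinyl esters of quiescent stellate cells, was higher in Control by 0.49 (SE 0.13, adjusted p = 0.0245) and in Rapa 14 ppm by 0.51 (adjusted p = 0.0219) than in WT-Control, both below the fold change threshold, and in DR 30% by 0.26 (adjusted p = 0.180), which did not pass. The adhesive glycoproteins Fn1, Efemp1 and Reln did not pass in any comparison, and their smallest adjusted p were 0.288, 0.113 and 0.218.

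The genotype difference could be read in separate mice on each diet. Of the 6 members called in Control vs WT-Control and the 9 called in DR 30% vs WT-DR, 5 were called in both, all of them higher, namely Col4a1, Mmp2, Postn, Fstl1 and Vim (83.3% of the first list and 55.6% of the second). Over all genes 342 were called in both in the same direction, which is 55.6% of 615 and 36.8% of 929. The sign was the same in 35 of 41 members (85.4%) and in 65.5% of all genes. Across the 41 members the log2 differences of the 2 comparisons correlated at r = 0.796, and across all genes at r = 0.58, which describes genes of shared arrays and is not a test.

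The restriction difference was likewise read in separate mice of each genotype. Mmp14 was called in both, out of 1 member called in DR 30% vs Control and 6 in WT-DR vs WT-Control, and over all genes 337 were called in both (64.2% of 525 and 30.9% of 1089). The sign was the same in 28 of 41 members (68.3%) and in 67.5% of all genes. Timp3 and Tgfbr2 passed the FDR in both genotypes. The plot of paired differences shows both pairs.

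**Figure D4:**
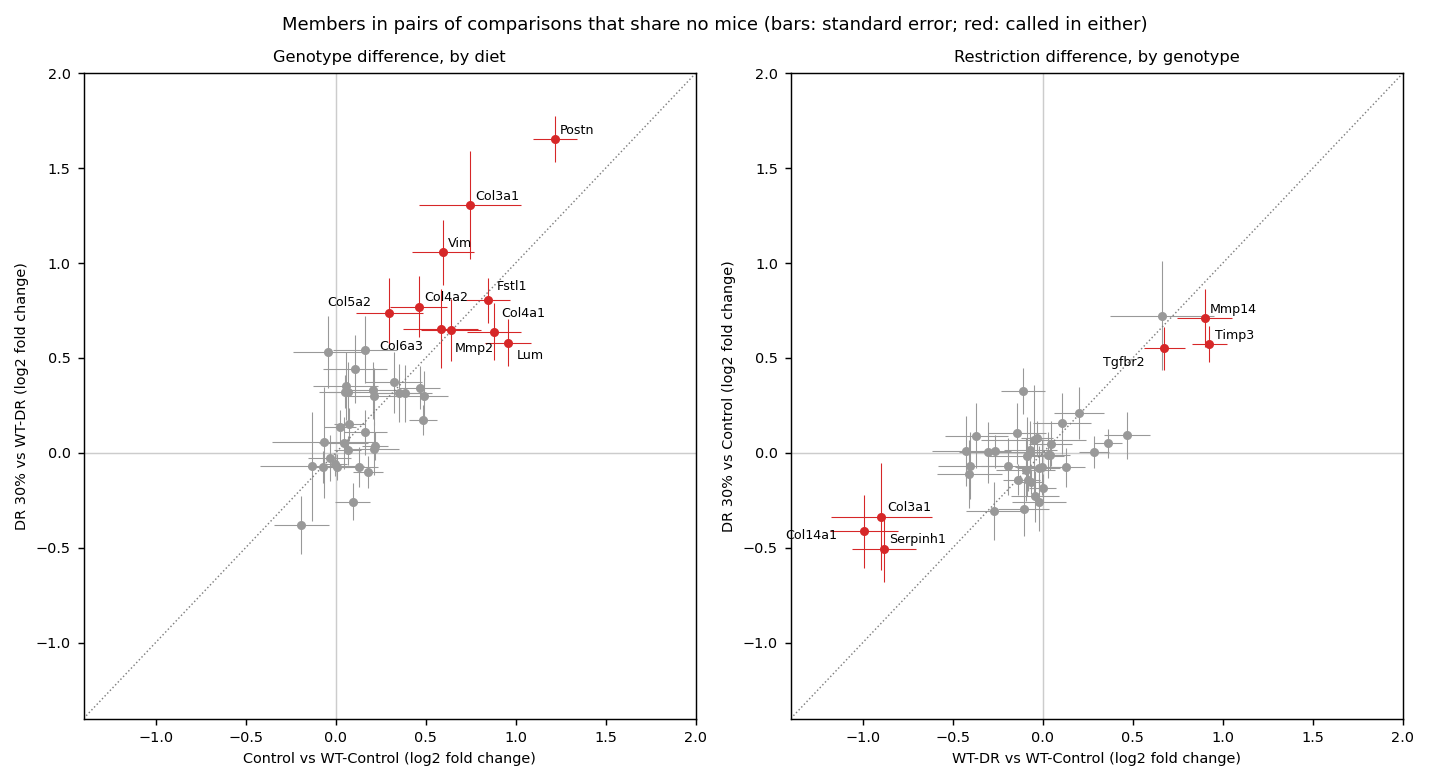
Log2 fold changes of the 41 members (points, with standard errors as bars) in Control vs WT-Control (x axis) and DR 30% vs WT-DR (y axis) on the left, and in WT-DR vs WT-Control (x axis) and DR 30% vs Control (y axis) on the right. Members called in either comparison are red and named, the dotted line marks equal differences, and Postn stands furthest up on the left at 1.22 and 1.65.

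No member passed the test of the interaction. At an unadjusted p under 0.05 there were 7 members (Col1a1, Col14a1, Lum, Dcn, Timp3, Postn and Pdgfra), and the smallest adjusted p was 0.184, for Dcn at −0.31 (95% interval −0.54 to −0.09). The interval for Postn was 0.08 to 0.79 and that for Timp3 −0.64 to −0.07. These intervals are not adjusted for the number of genes, and these members were among the 7 with that unadjusted p. The share of all genes at that p was not counted. Differences between the genotypes in the response to restriction, such as that of Col3a1 at 0.56 (−0.27 to 1.39), were therefore not resolved in limma with these numbers of mice.

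Rapamycin in the mutants left 0 members called against Control in limma, with 4 at an unadjusted p under 0.05 (Lox, Timp3, Ctgf and Tgfb2) and a smallest adjusted p of 0.237, for Lox at −0.26. The share of all genes at that unadjusted p was not counted. The 95% intervals of the log2 difference from Control were −0.09 to 0.44 for Postn, −0.07 to 0.49 for Lum, −0.05 to 0.48 for Fstl1, −0.50 to 0.16 for Col4a1 and −0.45 to 0.31 for Vim. These intervals bound the change in either direction and do not show that the groups were alike. The mean log2 level over the 41 members was 6.415 ± 0.095 (SD, n = 5) in WT-Control, 6.37 ± 0.18 in WT-DR, 6.69 ± 0.14 in Control, 6.74 ± 0.11 in Rapa 14 ppm (n = 4) and 6.70 ± 0.13 in DR 30%, as a description. The lowest mutant mouse was at 6.532, and the groups overlapped in this mean through WT-DR mouse 421 alone, at 6.618. Every other WT mouse was at 6.505 or less.

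Other genes of the matrix and its signalling, in 5 lists with 113 measured genes other than the members, were counted in the same way. These lists too were chosen with earlier results of these data known. In Control vs WT-Control, 5 of 113 were higher and 0 lower (4.42% higher, against 2.49% of all genes). In Rapa 14 ppm vs WT-Control, 5 were higher and 2 lower (4.42% and 1.77%, against 3.01% and 1.61%), and in DR 30% vs WT-Control 7 and 4 (6.19% and 3.54%, against 4.85% and 2.32%). Between DR 30% and WT-DR, 5 were higher and 0 lower, and the share of 4.42% was near the 4.22% of all genes. In WT-DR vs WT-Control, 1 was higher and 9 lower (0.885% and 7.96%, against 2.85% and 3.52%), and in DR 30% vs Control 0 and 2 (1.77% lower, against 1.22%). In Rapa 14 ppm vs Control 0 were called in either direction (0.0468% and 0.00585% of all genes). In Rapa 14 ppm vs DR 30%, 2 were higher and 1 lower (1.77% and 0.885%, against 0.842% and 1.27%), and in the interaction 1 and 1 (0.885% each, against 0.737% and 0.228%).

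Among 36 other matrix genes, Smoc2, a secreted calcium-binding protein of the matrix, was higher than in WT-Control by 1.33 (adjusted p = 0.00618) in Control, 1.52 in Rapa 14 ppm, 1.94 in DR 30% and 2.42 (adjusted p = 3.83e-06) in WT-DR on the log2 scale. The interaction of restriction and genotype was −1.81 (adjusted p = 0.0372) for Smoc2, so that its response to restriction was larger in WT mice. Col5a3, another collagen V chain, was lower than in WT-Control in WT-DR at −1.67 (adjusted p = 1.22e-07), in DR 30% at −1.17 and in Rapa 14 ppm at −0.69. In DR 30% it was below Control at −0.61 (adjusted p = 0.0170), with an interaction of 1.06 (adjusted p = 0.0239). Spon2, a secreted matrix protein, was lower in WT-DR than in WT-Control (−1.30) and in DR 30% than in Control (−0.92). Prelp, a leucine-rich proteoglycan, was lower in WT-DR than in WT-Control (−1.07) and higher in DR 30% than in WT-DR (0.85), as was Ogn, another of this family, in the latter (0.63). Fbln5, an elastic fibre protein, was higher in DR 30% than in WT-Control (0.78).

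Of 15 genes of collagen processing, P4ha2, a prolyl hydroxylase, was lower than in WT-Control in WT-DR at −0.83 (adjusted p = 3.02e-04) and in DR 30% at −0.68 on the log2 scale. Plod3, a lysyl hydroxylase, was likewise lower in WT-DR (−0.60) and DR 30% (−0.64). Pcolce2, an enhancer of procollagen cleavage, was lower in WT-DR than in WT-Control (−0.60) and higher in DR 30% than in WT-DR (0.89). Of 13 proteases and inhibitors, Mmp12, the macrophage elastase, was higher than in WT-Control by 1.49 (adjusted p = 9.16e-05) for Control, 1.84 for Rapa 14 ppm and 1.36 for DR 30%, and in DR 30% than in WT-DR by 1.23. Adamts5, an aggrecanase, was higher in Control (0.66) and Rapa 14 ppm (0.93) than in WT-Control and in Rapa 14 ppm than in DR 30% (0.81).

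Of 25 signalling genes, Bambi, a pseudoreceptor that dampens transforming growth factor beta, was higher than in WT-Control in Control (0.68) and DR 30% (0.88) on the log2 scale. Smad3, which carries the signal of that growth factor to the nucleus, was lower than in WT-Control in Rapa 14 ppm (−0.74), DR 30% (−0.70) and WT-DR (−0.65). Of 24 other stellate cell genes, Cygb, a globin of stellate cells, was higher than in WT-Control in Rapa 14 ppm (0.89) and DR 30% (0.87), and Rgs5, a regulator of G-protein signalling in pericytes, in Control (0.61) and DR 30% (0.77). Lhx2, a transcription factor of stellate cells, was higher in DR 30% (0.72) and Hgf, hepatocyte growth factor, in Rapa 14 ppm (0.81) than in WT-Control, and Ngfr, a neurotrophin receptor, was lower in WT-DR (−0.63). Rapa 14 ppm exceeded DR 30% in Hgf (0.67), and was below it in Pth1r, the receptor of parathyroid hormone (−0.69). Tpm1, a tropomyosin, was higher in DR 30% than in WT-DR (0.60).

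Markers of other cells moved with some of these comparisons. Of 9 macrophage and Kupffer cell markers, 7 were higher in DR 30% than in WT-DR, against 4.22% of all genes. Compared with WT-Control, 2 were higher in Control (2.49% of all genes), 1 in Rapa 14 ppm (3.01%) and 1 in DR 30% (4.85%). In WT-DR, 2 were lower than in WT-Control (3.52%). With lists this short, counts of 1 or 2 are a description only. Marco was also higher in DR 30% than in Control (1.11), against 1.85% of all genes. Their mean log2 level per mouse was 7.99 to 8.64 in Control, 8.04 to 8.57 in Rapa 14 ppm and 8.10 to 8.85 in DR 30%. In WT mice it was 7.74 to 8.17 in WT-Control and 7.31 to 7.89 in WT-DR. All 9 markers had a mean over all arrays above that of the middle probe set. Of 4 neutrophil markers, S100a8 and S100a9 were called higher in all 4 comparisons of mutant with WT mice. Mpo had a mean over all arrays below that of the middle probe set. The mean of the neutrophil list ran from 4.51 to 5.22 in mutants and from 4.07 to 4.37 in WT mice. The part of these markers in the results of the members, Vim among them, was not tested.

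Of 8 stellate cell markers, 7 were measured and 0 were called between genotypes, and Ngfr was lower in WT-DR. Hand2 had a mean over all arrays below that of the middle probe set. The list mean was 6.47 to 6.65 in Control, 6.43 to 6.55 in Rapa 14 ppm and 6.22 to 6.59 in DR 30%. It was 6.35 to 6.48 in WT-Control and 6.08 to 6.51 in WT-DR. Lrat, Reln, Des and Pdgfrb of that list are members too. Of 8 portal fibroblast and mesothelial markers, Cd34 was higher in all 4 comparisons of mutant with WT mice (0.71, 0.89, 0.79 and 0.81) and Thy1 in Control than in WT-Control (0.60). The shares of all genes called higher in these 4 comparisons were 2.49%, 3.01%, 4.85% and 4.22%. The list mean was 4.11 to 4.45 in mutants and 3.90 to 4.13 in WT mice. Cd34, Fbln2 and the mesothelial markers Msln, Upk3b and Gpm6a had a mean over all arrays below that of the middle probe set. So had all 4 vascular smooth muscle markers, 4 of 5 cholangiocyte markers, 4 of 6 lymphocyte markers and both adipocyte markers measured a mean below that of the middle probe set. Sinusoidal endothelial markers had 1 of 8 called in each of DR 30% vs WT-Control (Lyve1, 0.92), Rapa 14 ppm vs WT-Control (Stab2, −0.68) and WT-DR vs WT-Control (Clec4g, −0.70), and all 8 hepatocyte markers were above the median, with Tat lower in Control (−0.91) and Rapa 14 ppm (−0.63) than in WT-Control. The part of these lists in the results was not tested.

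**Figure D5:**
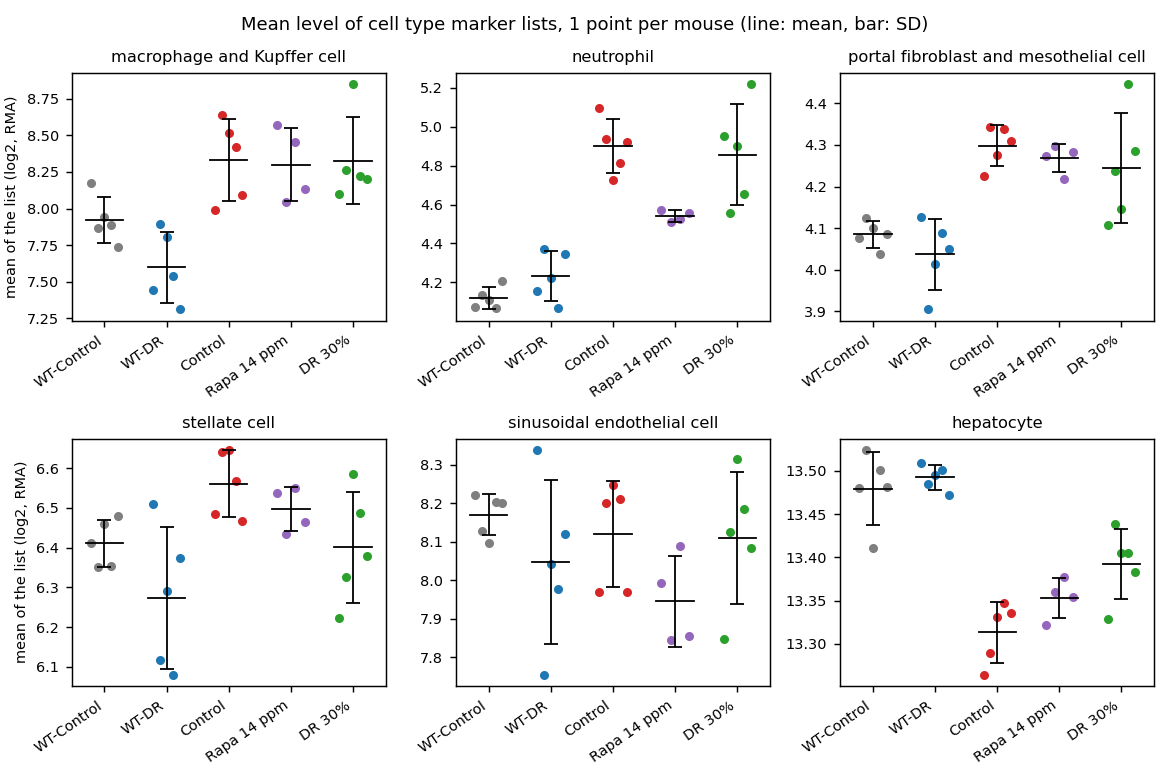
Mean log2 level of 6 marker lists in each mouse by group, with the mean (line) and SD (bar). The macrophage and Kupffer cell points are lowest in WT-DR, at 7.31 to 7.89, and the neutrophil points of all mutant mice lie above those of all WT mice.

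Several members could be read more than once. The 41 members had 76 probe sets, and 22 members had more than 1. Of 38 calls made with the probe set of the highest mean, 9 were also made with another probe set of the same gene, and 2 comparisons were called with another probe set only. Postn, Lum, Mmp2, Col6a3 and Col4a2 had 1 probe set each, so their calls could not be checked in this way. The other called members, Col3a1, Col5a2, Col4a1, Col14a1, Serpinh1, Timp3, Mmp14, Fstl1, Tgfbr2 and Vim, had more than 1 probe set. Of their calls, the 9 above were made with another probe set and the rest were not. The 2 examples that follow are of calls that were. Timp3 in WT-DR vs WT-Control was called with 3 probe sets (0.93, 0.89 and 0.71), and Vim in DR 30% vs WT-DR with 3 (1.06, 1.15 and 1.29). In the values per gene, Dcn reached the fold change threshold in Rapa 14 ppm and in DR 30% vs WT-Control (0.59 in each). Calls that were lost there were those of Col4a1 in DR 30% vs WT-Control (0.52) and vs WT-DR (0.56), Timp3 in DR 30% vs WT-Control (0.52), Col3a1 in WT-DR vs WT-Control (−0.58), Tgfbr2 in WT-DR vs WT-Control (0.49) and also in Rapa 14 ppm vs DR 30% (−0.50), Col5a2 in DR 30% vs WT-DR (0.28) and Mmp14 in Rapa 14 ppm vs DR 30% (−0.57), all with the same direction on the log2 scale. Tagln and Thbs1, which were not measured by probe set, were present in the values per gene, where their log2 differences were at most 0.32 and 0.13 and none was called.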

How the data were processed

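Liver RNA of 24 mice was hybridised to Affymetrix HT MG-430 PM arrays. The deposited values are log2 intensities that the authors obtained by RMA through an online array pipeline, whose version, and whether all arrays were normalized together, are not given in the sources used here. Each mouse has a table of 45141 probe sets, used here, and one of 17306 per-gene values, used as an alternative. Values were taken as deposited, with no filter on dim probe sets.

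A linear model with 5 group means was fitted over all probe sets in limma 3.58.1 (R 4.3.3), with empirical Bayes moderation and Benjamini-Hochberg adjustment over all probe sets. Scripts were tested on simulated data. Background shares refer to 17097 genes with 1 probe set each. All 41 measured members were accounted for. Values of every mouse are given for the 12 members with the smallest adjusted p, group values for other members past the threshold, and the 3 nearest uncalled members are named. In each other pathway list, up to 3 called genes with the smallest adjusted p per comparison were named. Members and lists were chosen with earlier results of these data known. No label gives a batch. Alternatives were the values per gene, median centring, renewed quantile normalization, dim probe sets left out, a trended robust variance, only the compared groups, other fold thresholds, any probe set of a member, and leaving out each mouse.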

Additional observations from a re-analysis of the deposited data

Results flagged for a closer look

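Of 100 checks for a mouse far from the others of its group (20 members in 5 groups), 3 were positive, and chance alone gives about 1 in 20. Vim was at a log2 level of 8.95 in WT-DR mouse 421 against 7.79 to 8.08 in the other WT-DR mice. The same mouse had the highest WT-DR levels of Col3a1 (9.00), Fstl1 (5.50), Serpinh1 (6.55) and Col14a1 (8.26), and its mean over the 41 members was 6.618 against 6.121 to 6.391 in the others. Col6a3 was at 5.20 in WT-DR mouse 422 against 6.06 to 6.34 in the other WT-DR mice. Mmp14 was at 7.49 in Control mouse 325 against 6.98 to 7.11 in the other Control mice. The cause was not tested.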

How the results depend on the processing

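Of the settings tried on the members past the FDR, 1727 values kept their direction and side of the threshold, 47 lost a call, 23 gained one and 0 changed direction. The count of members called in DR 30% vs Control, 1 in the model reported, was 2 with the values per gene, with median centring and with any probe set of a member. It was 3 with no fold change threshold and 0 with a fold change of at least 2. With no fold change threshold the counts were 10 in Rapa 14 ppm vs WT-Control, 12 in DR 30% vs WT-Control and 10 in WT-DR vs WT-Control. With a fold change of at least 2 they were 1 in Control vs WT-Control, 3 in Rapa 14 ppm vs WT-Control, 3 in DR 30% vs WT-Control, 0 in WT-DR vs WT-Control, 3 in DR 30% vs WT-DR and 0 in Rapa 14 ppm vs DR 30%. Rapa 14 ppm vs DR 30%, with 3 called, had 1 with the values per gene. A changed threshold changes these counts by construction, and the cause of the other changes was not tested.

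Leaving out each mouse in turn gave 4 to 7 called members in Control vs WT-Control, 5 to 8 in Rapa 14 ppm vs WT-Control, 6 to 10 in DR 30% vs WT-Control, 1 to 3 in DR 30% vs Control, 5 to 6 in WT-DR vs WT-Control, 7 to 12 in DR 30% vs WT-DR and 1 to 3 in Rapa 14 ppm vs DR 30%. It gave 0 in Rapa 14 ppm vs Control and 0 in the interaction. The count in DR 30% vs Control was 2 without Control mouse 323 or DR 30% mouse 362, 368 or 369, and 3 without Control mouse 326. That in Rapa 14 ppm vs DR 30% was 1 without Rapa 14 ppm mouse 537 or DR 30% mouse 362. No paired analysis was possible because the replicate numbers are animal numbers and the groups share none. Array signals near the lower end of the scale, as for Col1a2, limit what can be measured.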
